A study of Mus musculus with 20 samples.

Results

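Neutrophil granule proteins are represented here by 10 named genes: Mpo, Elane, Prtn3, Ctsg, Camp, Ltf, Ngp, Lcn2, Lyz2 and Cybb. They were listed by name and not by a rule on measured values, but with earlier results of these data known. Each stood on 1 row among the 15465 genes with values. They were followed in bulk RNA sequencing of an orthotopic mouse model of breast cancer (BC) made with 4T1, a mouse mammary carcinoma line. The compared groups were 4 BC lung metastases and the 4 BC primary tumors of the same mice, all labelled as 4T1 derived and collected at 28 days. The labels give no treatment and do not state the strain or age of the host mice. The series, which asks what differs between primary tumors and their metastases, holds 20 libraries in all, and its pancreatic (PDAC) libraries were not used here.

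Neutrophils are short-lived white cells that carry their antimicrobial proteins in preformed granules. In textbook accounts the granule classes are filled one after another as the cell matures in the bone marrow. Azurophil granule proteins such as myeloperoxidase and the serine proteases are made at the promyelocyte stage. Specific granule proteins such as lactoferrin and cathelicidin are made later, at the myelocyte and metamyelocyte stages, and the circulating cell retains little messenger RNA of the earliest class. Lysozyme and the membrane oxidase are also made by macrophages and monocytes.

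Lung metastases held far more transcript of the specific granule proteins Camp, Ltf and Ngp than the primary tumors of the same mice. The azurophil genes Mpo and Ctsg were also higher, by a smaller amount and at much lower levels. In all, 5 of the 10 members were called higher in lung metastases and 0 lower, where 7.18% of the 14003 genes tested were called higher and 9.13% were called in either direction. A gene was called at a limma adjusted p (Benjamini-Hochberg over all 14003 genes) under 0.05. The call count ran from 4 to 7 over the alternative settings, with Camp, Ltf, Ngp and Mpo called in all of them; 0 members were lower at an unadjusted p under 0.05 in limma or by the adjusted p of edgeR or DESeq2. For 6 members every lung metastasis lay above every primary tumor, which held for 10.4% of all genes tested. The median log2 change of the 10 members was 1.96, beside -0.06 over all genes tested. All 10 passed the filter on low values. In bulk tissue, fewer cells of a type and less RNA per cell cannot be told apart.

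The BC libraries held between 15447918 and 28995834 reads, and 1 read was worth 0.0337 to 0.0676 of the normalised read counts given below, which are per about 1000000 reads of a scaled library. Lung metastasis 3 had the fewest reads and the highest value among the lung metastases for 9 of the 10 members. Its 8 mature neutrophil markers, among them S100a8, S100a9 and Ly6g, took 2.42% of reads, against 0.701% to 1.22% in the other lung metastases. Primary tumor 2 stood apart among the primary tumors, with 0.124% of reads in these markers, against 0.0203% to 0.0323% in the others. Airway epithelial markers made up between 0.237% and 2.13% of a lung metastasis library, against 0.000367% to 0.000511% of a primary tumor library, and the metastasis samples thus carried transcripts of lung epithelium. For mammary carcinoma epithelial markers the share was 0.0786% to 0.302% among lung metastases, against 0.135% to 0.262% among primary tumors. The part of these differences in tissue in the results was not tested.

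**Figure D1:**
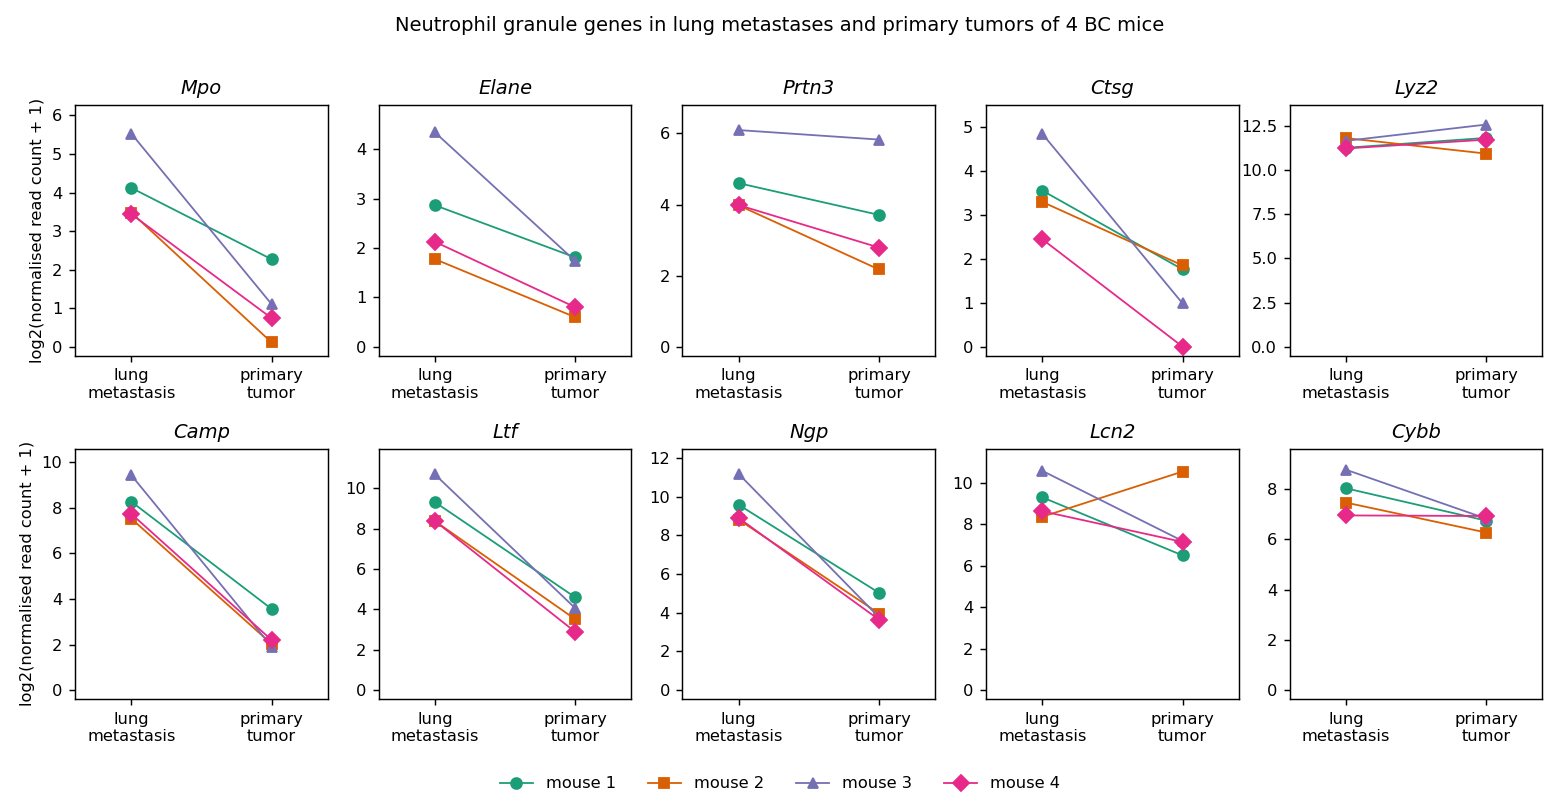
Levels of the 10 granule genes in each library as log2(normalised read count + 1), 1 panel per gene with its own range, lung metastases left of primary tumors, and 1 marker shape and line per mouse. The lines of Camp, Ltf and Ngp slope down to the primary tumor in all 4 mice, Lcn2 is high in primary tumor 2, and Prtn3 is high in both tissues of mouse 3.

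The azurophil members were all scarce. Mpo (ENSMUSG00000009350) encodes myeloperoxidase, the enzyme that makes hypochlorous acid. It had 16.4, 10.2, 45.2 and 9.87 normalised read counts in lung metastases 1 to 4, against 3.81, 0.0789, 1.15 and 0.669 in primary tumors 1 to 4. The groups did not overlap, and the value of primary tumor 2 rested on 2 reads. The means were 20.4 ± 16.8 in lung metastases and 1.43 ± 1.65 in primary tumors (SD, n = 4 each). On the log2(value + 1) scale the change was 3.09 (SE 0.557, 95% interval 1.86 to 4.32, limma adjusted p = 0.0065). Mpo was higher in all 4 mice. Its fitted log2 change was 4.20 with a pseudocount of 0.1 and 1.82 with 5.

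Ctsg (ENSMUSG00000040314) encodes cathepsin G, a serine protease of the same granules. It had 10.8, 8.82, 27.8 and 4.45 normalised read counts in lung metastases, against 2.38, 2.60, 0.978 and 0 in primary tumors. No primary tumor reached the lowest lung metastasis, and a count of 0 in primary tumor 4 allows up to 0.106, the value of 3 reads there. The log2 change was 2.39 (SE 0.554, 95% interval 1.16 to 3.61, limma adjusted p = 0.0222). The Ctsg call rested on single libraries: the adjusted p was 0.076 without lung metastasis 1, 0.0624 without lung metastasis 2, 0.0649 without primary tumor 3 and 0.07 without primary tumor 4. It was also lost without both libraries of mouse 3 (0.0707), with a pseudocount of 0.1 (0.0579) and with edgeR (0.104).

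Elane and Prtn3 encode neutrophil elastase and proteinase 3, related serine proteases whose genes lie close together on chromosome 10. Elane (ENSMUSG00000020125) had 6.29, 2.42, 19.3 and 3.36 normalised read counts in lung metastases, against 2.50, 0.513, 2.33 and 0.74 in primary tumors. It was higher in all 4 mice, but lung metastasis 2 lay just under primary tumor 1 and the groups overlapped. Its log2 change was 1.54 (SE 0.552, 95% interval 0.32 to 2.76), which did not pass the test (limma adjusted p = 0.121). With the mouse as a block the limma adjusted p was 0.0478, and with DESeq2 it was 0.0175. Prtn3 (ENSMUSG00000057729) had 23.3, 14.8, 67.4 and 14.8 normalised read counts in lung metastases, against 12.1, 3.51, 55.8 and 5.92 in primary tumors. Both tissues of mouse 3 stood well above the rest of their group, and the means were 30.1 ± 25.2 in lung metastases and 19.3 ± 24.6 in primary tumors (SD, n = 4 each). Prtn3 was higher in the lung metastasis of all 4 mice, with a log2 change of 1.04 (SE 0.738, 95% interval -0.59 to 2.67) that did not pass (limma adjusted p = 0.436).

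Primary tumor 3 set Prtn3 apart from its granule partners. It held 1656 reads of Prtn3, against 34 of Mpo, 69 of Elane and 29 of Ctsg. In lung metastasis 3 the 4 azurophil genes had 997, 669, 285 and 411 reads in the order Prtn3, Mpo, Elane and Ctsg. The high Prtn3 value of mouse 3 in the primary tumor was thus not shared by the other azurophil members.

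The promoters of the 4 azurophil members are shown because these genes are the class of the earliest granules, and all 4 hold the 6 letters GAGGAA, a core bound by PU.1 and other ETS factors, in capitals. Each window runs from 250 bases before to 50 bases after the gene's start in RefSeq, build GRCm38.p6, 5′ to 3′ on the strand of the gene. The windows are chr11:87793534-87793833 on the plus strand for Mpo, chr10:79886062-79886361 on the plus strand for Elane, chr10:79879417-79879716 on the plus strand for Prtn3 and chr14:56102525-56102824 on the minus strand for Ctsg.
Mpo: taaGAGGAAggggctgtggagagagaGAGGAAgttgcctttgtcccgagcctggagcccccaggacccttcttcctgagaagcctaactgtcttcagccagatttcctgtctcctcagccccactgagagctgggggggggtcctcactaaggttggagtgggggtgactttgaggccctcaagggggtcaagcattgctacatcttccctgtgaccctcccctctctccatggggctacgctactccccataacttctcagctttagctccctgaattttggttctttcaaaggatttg
Elane: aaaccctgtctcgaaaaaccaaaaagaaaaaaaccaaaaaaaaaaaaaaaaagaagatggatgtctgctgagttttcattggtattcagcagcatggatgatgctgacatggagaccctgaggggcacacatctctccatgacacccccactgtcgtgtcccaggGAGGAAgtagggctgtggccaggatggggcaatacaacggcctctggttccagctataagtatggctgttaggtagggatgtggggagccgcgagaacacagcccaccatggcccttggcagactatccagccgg
Prtn3: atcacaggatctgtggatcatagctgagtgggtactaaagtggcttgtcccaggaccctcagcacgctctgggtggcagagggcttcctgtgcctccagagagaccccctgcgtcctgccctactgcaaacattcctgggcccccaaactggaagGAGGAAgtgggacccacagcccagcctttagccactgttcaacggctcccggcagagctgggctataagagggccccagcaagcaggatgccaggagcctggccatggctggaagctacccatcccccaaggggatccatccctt
Ctsg: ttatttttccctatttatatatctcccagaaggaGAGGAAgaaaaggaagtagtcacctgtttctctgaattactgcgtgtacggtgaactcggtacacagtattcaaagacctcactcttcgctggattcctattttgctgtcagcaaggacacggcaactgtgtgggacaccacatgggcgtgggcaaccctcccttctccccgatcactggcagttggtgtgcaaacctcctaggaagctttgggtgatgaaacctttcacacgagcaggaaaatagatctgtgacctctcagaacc
GAGGAA or its reverse TTCCTC stood in 7 of the 10 member promoters and in 28.3% of 32851 RefSeq promoters of the same length. In Elane and Prtn3 the match lay 85 and 95 bases before the start, while Mpo held 2 matches farther out, 247 and 224 bases before the start. The Ctsg match lay 216 bases before the start. A match is a description of the letters and not a site shown to be bound.

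Of the specific granule members, Camp, Ltf and Ngp had the largest log2 changes among the 10 genes, and Lcn2 did not share them. Camp (ENSMUSG00000038357) encodes the cathelicidin antimicrobial peptide precursor. It had 309, 184, 692 and 212 normalised read counts in lung metastases, against 10.8, 3.08, 2.76 and 3.59 in primary tumors. Every lung metastasis exceeded every primary tumor many times over. The log2 change was 5.82 (SE 0.459, 95% interval 4.80 to 6.84, limma adjusted p = 6.48e-05).

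Ltf (ENSMUSG00000032496) encodes lactoferrin, which binds iron and so withholds it from microbes. It had 636, 331, 1648 and 332 normalised read counts in lung metastases, against 23.2, 10.4, 15.6 and 6.38 in primary tumors, with no overlap. Its log2 change was 5.43 (SE 0.515, 95% interval 4.29 to 6.57, limma adjusted p = 0.000172). Ngp (ENSMUSG00000032484) encodes neutrophilic granule protein, a relative of the cathelicidins and cystatins. It had 762, 448, 2306 and 474 normalised read counts in lung metastases, against 31.7, 14.6, 12.6 and 11.5 in primary tumors, again with no overlap. Ngp changed by 5.51 on the log2 scale (SE 0.496, 95% interval 4.42 to 6.61, limma adjusted p = 0.000127). Within mice the fold was 24.1 to 183 for Ngp, 27.4 to 105 for Ltf and 28.6 to 250 for Camp, and mouse 3 gave the highest for each. Without both libraries of mouse 3 the Ngp log2 change was 4.88.

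Lcn2 (ENSMUSG00000026822) encodes lipocalin 2, which captures bacterial siderophores and is also made by epithelial and carcinoma cells. It had 626, 326, 1519 and 393 normalised read counts in lung metastases, against 89.0, 1482, 145 and 140 in primary tumors. The lung metastases were above 3 of the primary tumors, and primary tumor 2 was nearly as high as the highest lung metastasis. Lcn2 was higher in the lung metastasis of 3 of 4 mice and lower in that of mouse 2. The log2 change was 1.37 (SE 0.799, 95% interval -0.40 to 3.14, limma adjusted p = 0.338), and without primary tumor 2 it was 2.27 with a limma adjusted p of 0.0199. In primary tumor 2, where Lcn2 was so high, Camp, Ltf and Ngp stood at 3.08, 10.4 and 14.6, each within the range of the other primary tumors.

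The promoters of Ngp and Ltf are shown as those of 2 specific granule genes that moved together. They hold more than 1 match each to TTNCNNAA, a loose form of the element bound by C/EBP factors, or to its reverse TTNNGNAA, in capitals. The windows are chr9:110419558-110419857 for Ngp and chr9:111019042-111019341 for Ltf, both on the plus strand of GRCm38.p6 in RefSeq.
Ngp: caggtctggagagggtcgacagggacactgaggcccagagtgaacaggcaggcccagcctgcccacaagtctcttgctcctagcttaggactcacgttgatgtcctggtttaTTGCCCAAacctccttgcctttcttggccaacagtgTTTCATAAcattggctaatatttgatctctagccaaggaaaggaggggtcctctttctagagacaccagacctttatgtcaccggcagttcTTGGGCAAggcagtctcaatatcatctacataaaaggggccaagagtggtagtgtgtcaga
Ltf: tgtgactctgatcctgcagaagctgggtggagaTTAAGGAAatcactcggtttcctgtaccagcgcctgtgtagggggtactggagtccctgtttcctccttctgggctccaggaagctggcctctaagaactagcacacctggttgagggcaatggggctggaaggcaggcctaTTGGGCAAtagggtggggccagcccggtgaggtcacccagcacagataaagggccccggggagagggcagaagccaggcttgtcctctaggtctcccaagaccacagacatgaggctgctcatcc
Ngp held 3 matches, at 138, 102 and 11 bases before the start, and Ltf held 2, at 217 and 75 bases before it. These letters, on either strand, stood in 40.7% of all 32851 promoters and in 4 of the 10 members, the others being Lcn2 and Lyz2, and the TTCCTC match in Ltf is left in lower case. Camp held none in its window. The GFI1 core AAATCA or its reverse TGATTT stood in 14% of all promoters and in 1 member, Ltf, where it overlapped the farther TTNNGNAA match.

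Lyz2 and Cybb, which macrophages also make, did not pass the test. Lyz2 (ENSMUSG00000069516) encodes lysozyme, which cleaves bacterial cell walls. It had 2457, 3599, 3231 and 2395 normalised read counts in lung metastases, against 3624, 1956, 6123 and 3388 in primary tumors. The groups overlapped, and Lyz2 was lower in the lung metastasis of 3 of 4 mice. Its log2 change was -0.28 (95% interval -1.19 to 0.64, limma adjusted p = 0.727). Lyz1, a near-identical copy that may share reads with it, had 106, 115, 252 and 55.6 normalised read counts in lung metastases, against 5.72, 1.38, 16.3 and 6.24 in primary tumors, a log2 change of 4.11 (SE 0.579, limma adjusted p = 0.0015). Values of both genes are uncertain for that reason. Lyz1 is also a product of alveolar type 2 cells in mice. Markers of these cells, a list that includes Lyz1, made up 0.4% to 1.23% of a lung metastasis library. In a primary tumor library they made up 0.015% to 0.017%. The part of alveolar type 2 cells in the Lyz1 and Lyz2 values was not tested.

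Cybb (ENSMUSG00000015340) encodes gp91phox, the catalytic subunit of the phagocyte NADPH oxidase. It had 261, 176, 437 and 123 normalised read counts in lung metastases, against 106, 76.3, 113 and 121 in primary tumors. The groups did not overlap, though lung metastasis 4 and primary tumor 4 differed by a factor of 1.02. The log2 change was 1.11 (SE 0.341, 95% interval 0.36 to 1.87), short of the threshold (limma adjusted p = 0.072). It passed with DESeq2 (0.00737), with array weights (0.0112) and without lung metastasis 4 (0.0221). The 14 macrophage and monocyte markers, whose cells express both genes, made up 0.0949% to 0.239% of a lung metastasis library, against 0.156% to 0.382% of a primary tumor library. Primary tumor 2, the lowest primary tumor for both Lyz2 and Cybb, was also the lowest primary tumor in these markers, with a summed value of 1548, against 3456 to 3739 in the others.

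**Figure D2:**
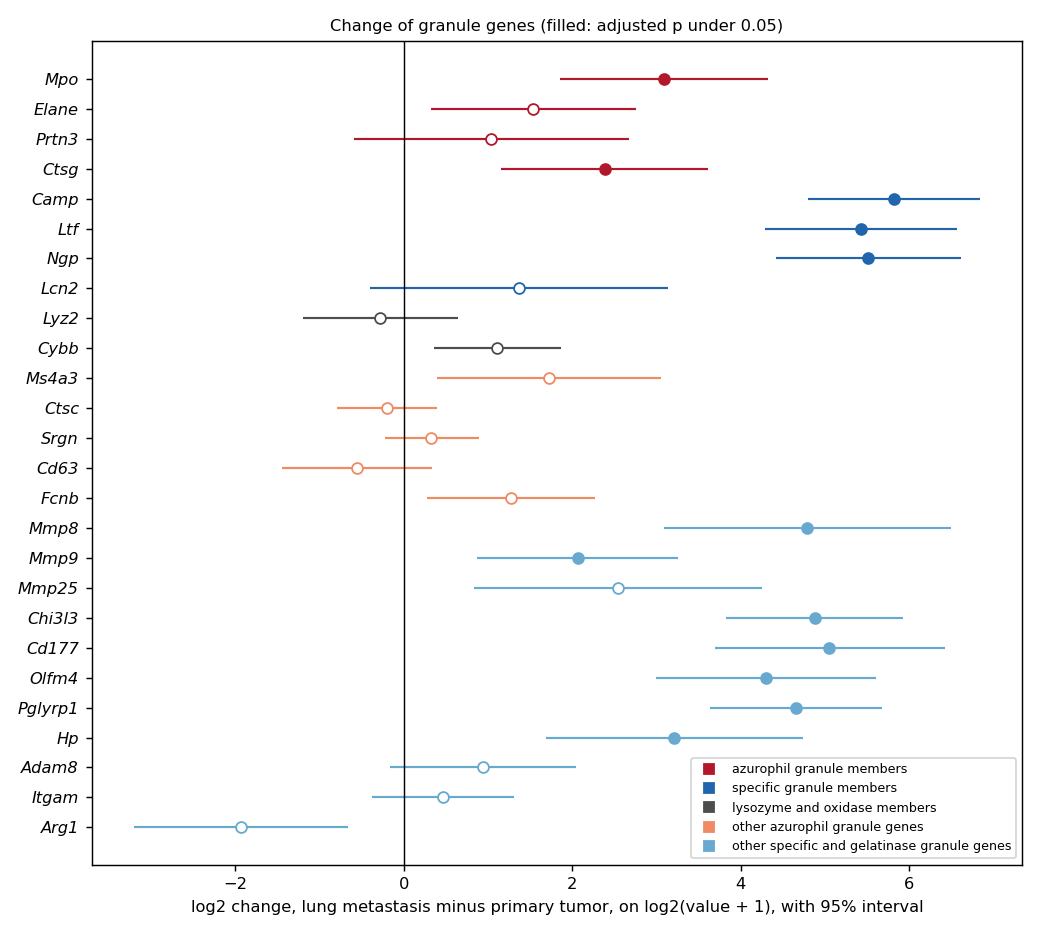
Log2 change of the 10 granule genes and of other granule genes, lung metastasis minus primary tumor on the log2(value + 1) scale, with 95% intervals from limma and filled points for adjusted p under 0.05. Camp, Ngp and Ltf lie between 5.43 and 5.82, while the intervals of Prtn3, Lcn2 and Lyz2 cross 0.

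Levels of different genes were set side by side per kilobase of the longest coding transcript in GENCODE M21. In lung metastases Lyz2 led with 2219 ± 449 normalised read counts per kilobase (SD, n = 4, as for all levels in this paragraph). It was followed by Ngp at 817 ± 723, Lcn2 at 783 ± 601, Camp at 461 ± 310 and Ltf at 269 ± 228, in that order. The scarce members were Cybb at 52.5 ± 28.9, Prtn3 at 29.3 ± 24.6, Ctsg at 12.9 ± 10.2, Elane at 7.96 ± 7.92 and Mpo at 7.43 ± 6.11. From Ngp down, each member lay within 1 SD, the larger of the pair, of the next in that order. In primary tumors Lyz2 stood at 2867 ± 1316 and Lcn2 at 507 ± 742, and the Lcn2 mean was carried by primary tumor 2. Cybb (21.9 ± 4.10) and Prtn3 (18.9 ± 24.0) came next by mean, the second carried by primary tumor 3, followed by Ngp (14.4 ± 7.76), Camp (6.68 ± 5.08) and Ltf (5.07 ± 2.65). Elane (1.55 ± 1.06), Ctsg (1.49 ± 1.23) and Mpo (0.519 ± 0.600) came last.

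The balance between granule classes was alike in the 4 lung metastases and differed in the primary tumors. Within a library, Camp, Ltf and Ngp together had 30.1, 26.6, 29.1 and 31.3 times the summed value of Mpo, Elane, Prtn3 and Ctsg in lung metastases 1 to 4, against 3.16, 4.18, 0.515 and 2.93 times in primary tumors 1 to 4. With Lcn2 left out in this way, the lung metastases spanned a narrow range although their mature neutrophil markers took from 0.701% to 2.42% of reads. No primary tumor came near that range. With Lcn2 included, the specific members of primary tumor 2 summed to 1510 and its azurophil members to 6.705. This ratio was above that of every lung metastasis, the highest being lung metastasis 4 with sums of 1411 and 32.52. The other primary tumors stayed below the lung metastases. As a difference of mean log2 values, with Lcn2 included, the 4 specific members exceeded the 4 azurophil members by 5.33, 5.14, 5.26 and 5.41 in lung metastases, against 2.53, 3.83, 1.82 and 2.88 in primary tumors. The difference between the group means was 2.52, a description of chosen genes with no test.

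Set against S100a8 and S100a9, the abundant calcium-binding proteins of mature neutrophils, Camp, Ltf and Ngp parted from Lcn2 and the summed azurophil genes. Camp, Ltf and Ngp together had 164, 166, 229 and 144 normalised read counts per 1000 of S100a8 and S100a9 in lung metastases, against 229, 28.2, 202 and 134 in primary tumors. The groups overlapped, with primary tumor 2 far below the other libraries. Lcn2, the remaining specific member, had 60.1, 56.2, 74.9 and 55.4 per 1000 in lung metastases, against 310, 1489, 944 and 878 in primary tumors. For Lcn2 every primary tumor thus exceeded every lung metastasis. The azurophil genes had 5.44, 6.23, 7.88 and 4.59 per 1000 in lung metastases, against 72.4, 6.74, 393 and 45.9 in primary tumors. Here 3 of the primary tumors stood well above all lung metastases, and primary tumor 2 lay within their range. Prtn3 made up the larger part in every primary tumor, with 42.1, 3.53, 364 and 37.1 per 1000. The sum did not hold for each gene. Mpo had 13.3, 0.0793, 7.48 and 4.19 per 1000 in primary tumors, against 1.39 to 2.23 in lung metastases. Ctsg had 8.3, 2.62, 6.38 and 0, against 0.629 to 1.52. In primary tumors these ratios rested on 2 to 96 reads of Mpo and 0 to 66 of Ctsg.

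**Figure D3:**
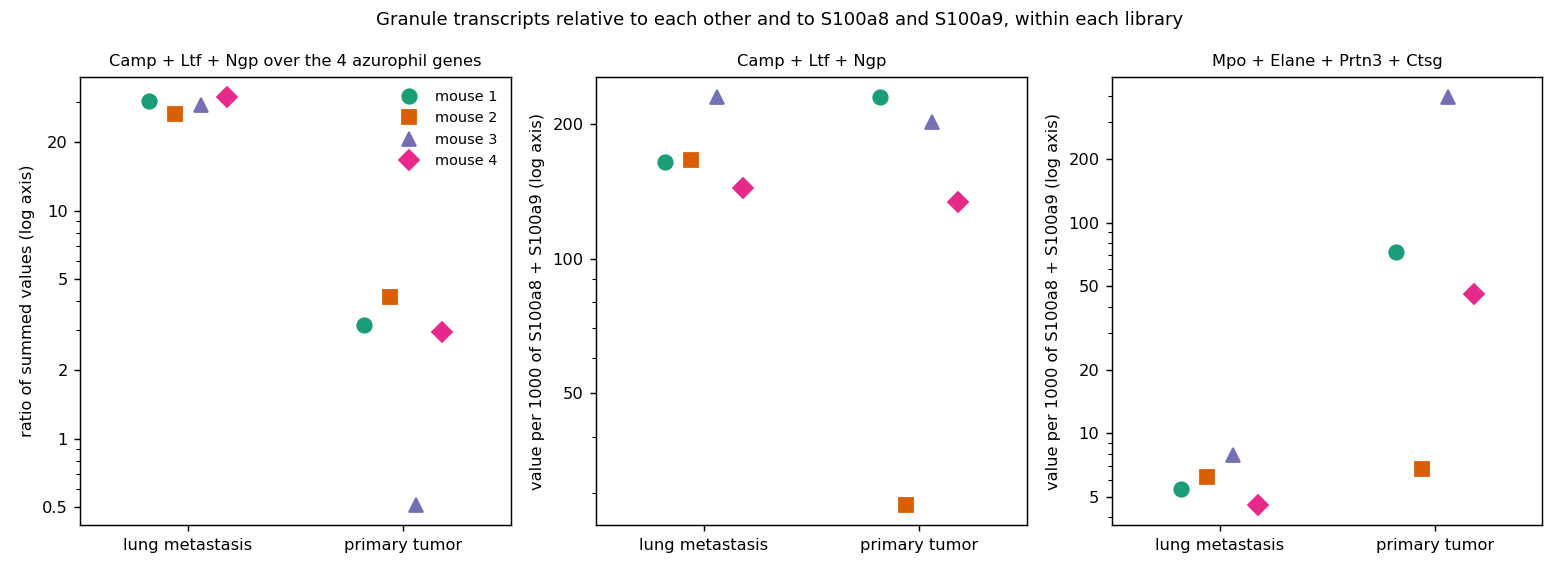
Ratios of summed normalised read counts within each library on log axes, with lung metastases left of primary tumors and 1 marker shape per mouse. The left panel shows Camp, Ltf and Ngp over the azurophil members, at 26.6 to 31.3 in lung metastases and 0.515 to 4.18 in primary tumors. The other panels show Camp, Ltf and Ngp, and the azurophil members, per 1000 of S100a8 and S100a9. Lcn2 is not included in any panel.

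Of 11 tested specific and gelatinase granule genes outside the members, 7 were higher and 0 lower (median log2 change 3.21, beside -0.06 over all genes). Of all genes tested 7.18% were called higher. Over the 18 alternatives 1 of the 7 calls held in 12 and another in 17. By DESeq2, and at an unadjusted limma p under 0.05, 1 of the 11 genes was lower. Its log2 change was -1.93, it was lower in all 4 mice, and it was called in 4 of 18 alternatives. The higher ones included Chi3l3, a chitinase-like protein (log2 change 4.88), Pglyrp1, which binds bacterial peptidoglycan (4.66), Cd177, a neutrophil surface protein stored in specific granules (5.05), and Olfm4, a matrix glycoprotein of a subset of neutrophils (4.30). Pglyrp1 had 154, 77.5, 416 and 121 normalised read counts in lung metastases, against 4.29, 9.70, 4.05 and 4.30 in primary tumors. Chi3l3 is also made by alveolar macrophages. Of 5 further genes listed with the azurophil class, 0 were called in either direction by limma (median 0.33). Likewise 0 were called by edgeR and DESeq2, while 2 were higher at an unadjusted limma p under 0.05. With array weights 2 were called higher, Ms4a3 (limma adjusted p = 0.0251) and Fcnb (0.0376), and without lung metastasis 4 Ms4a3 was called (0.0391). The nearest to the threshold were Ms4a3, a marker of early granulocyte precursors (log2 change 1.72, limma adjusted p = 0.113), and Fcnb, a ficolin (1.27, limma adjusted p = 0.116). In textbook accounts the remaining ones, Ctsc, Srgn and Cd63, are also made by macrophages and other cells. Their log2 changes were -0.20, 0.33 and -0.55.

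Of 6 oxidase partners of Cybb, Rac2 was higher and 0 were lower. Rac2, the small GTPase that activates the oxidase, had 227, 152, 517 and 134 normalised read counts in lung metastases, against 64.7, 48.5, 78 and 56.6 in primary tumors (log2 change 1.84, SE 0.371, limma adjusted p = 0.0114). The cytosolic subunits Ncf1 and Ncf4 had log2 changes of 1.13 and 0.84, which did not pass (limma adjusted p = 0.092 and 0.121). Cyba, the membrane partner of Cybb, had a log2 change of -0.07. The group's median was 0.88. For these partners, and for the inhibitors and receptors below, the 0 lower calls were also 0 at an unadjusted limma p under 0.05, by edgeR and by DESeq2.

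Of 9 listed protease inhibitors 6 were higher and 0 lower, with a median log2 change of 4.13. Most of the higher ones were stefin genes, inhibitors of cysteine cathepsins and not of serine proteases such as Elane, Prtn3 and Ctsg. Among the listed inhibitors of serine proteases, only Serpinb1a and Serpina3n were called. Serpinb1a, an inhibitor of elastase, proteinase 3 and cathepsin G, had 48.7, 45.4, 150 and 42.5 normalised read counts in lung metastases, against 5.60, 1.46, 2.16 and 2.11 in primary tumors (log2 change 4.13, SE 0.445, limma adjusted p = 0.000376). Serpina3n, an inhibitor of serine proteases, changed by 3.94, Stfa3, a stefin that inhibits cysteine cathepsins, by 4.89 and BC100530, another stefin gene, by 4.43. The stefin genes are near-identical copies that may share reads, so their separate values and the count of calls among them are uncertain. Slpi, a secreted inhibitor of elastase, had a log2 change of -0.06.

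Among 7 tested transcription factors of granule genes 2 were higher and 1 lower (median 0.85). Cebpe, which is needed for specific granules, had 5.69, 4.20, 20.4 and 5.55 normalised read counts in lung metastases, against 0.358, 0.434, 0.607 and 0 in primary tumors, a log2 change of 2.65 (SE 0.445, limma adjusted p = 0.00438). Cebpd changed by 2.10 (limma adjusted p = 0.000598). Runx1 had a log2 change of -0.62 (limma adjusted p = 0.0245), a call lost with the mouse block (0.0589). Its call was also lost without lung metastasis 1 (0.0938) or 2 (0.0789) and without primary tumor 1 (0.0574), 3 (0.0934) or 4 (0.0923). Sfpi1, the gene of PU.1, had a log2 change of 0.85 (limma adjusted p = 0.141).

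Of 7 receptors of granule proteins 3 were higher and 0 lower (median 0.78). The formyl peptide receptors Fpr1 and Fpr2, the second of which also binds cathelicidin, changed by 2.85 and 2.84. Lrp2, an endocytic receptor of epithelial cells that binds lipocalin 2, changed by 3.98 (limma adjusted p = 0.00152), a call lost with edgeR (0.0712) and DESeq2 (0.0696).

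Markers of other cells moved with the groups too. Mature neutrophil markers were higher in 7 of 8 cases (median log2 change 4.94), with log2 changes of 4.97 for Ly6g, a surface marker of mouse neutrophils, and 5.01 for S100a8. Of 4 myeloid progenitor markers 0 were called by limma and 0 by edgeR (median 0.85), against 1 higher by DESeq2 and 2 higher at an unadjusted limma p under 0.05. With array weights 1 was called higher, and 2 were without lung metastasis 4 or without primary tumor 2. Kit, a receptor of progenitors and mast cells, had a log2 change of 1.72 (limma adjusted p = 0.0874). Of 14 macrophage and monocyte markers 1 was higher, Ly6c2 of inflammatory monocytes (2.54), and 2 were lower, among them Trem2 (-1.59), a lipid receptor of macrophages, with a median of -0.94. The Trem2 adjusted p ran from 0.00597 to 0.11 over the alternatives.

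Marker transcripts of lung cells and red cells were higher in lung metastases as well. Alveolar macrophage markers were higher in 5 of 6 tested cases (median 3.62), with 2 of 9 at 0 in all primary tumors. Alveolar type 2 cell markers were higher in 7 of 9 (median 7.86), airway epithelial markers in 4 of 5 (median 6.49) and erythroid markers in 5 of 5 (median 5.41). Eosinophil, basophil and mast cell markers were higher in 3 of 5 tested cases (median 2.02), among them Prg2, the eosinophil major basic protein (2.92). Siglec5 was counted both in that list and among the alveolar macrophage markers. Chi3l3 was counted both among the alveolar macrophage markers and among the specific and gelatinase granule genes. Erythroid markers made up 0.205% to 0.923% of a lung metastasis library, highest in lung metastasis 3, against 0.00523% to 0.0164% of a primary tumor library. Of 8 mammary carcinoma epithelial markers 1 was higher, Krt19 (3.03), with a median of 0.01. The part of these cells in the granule gene results was not tested.

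**Figure D4:**
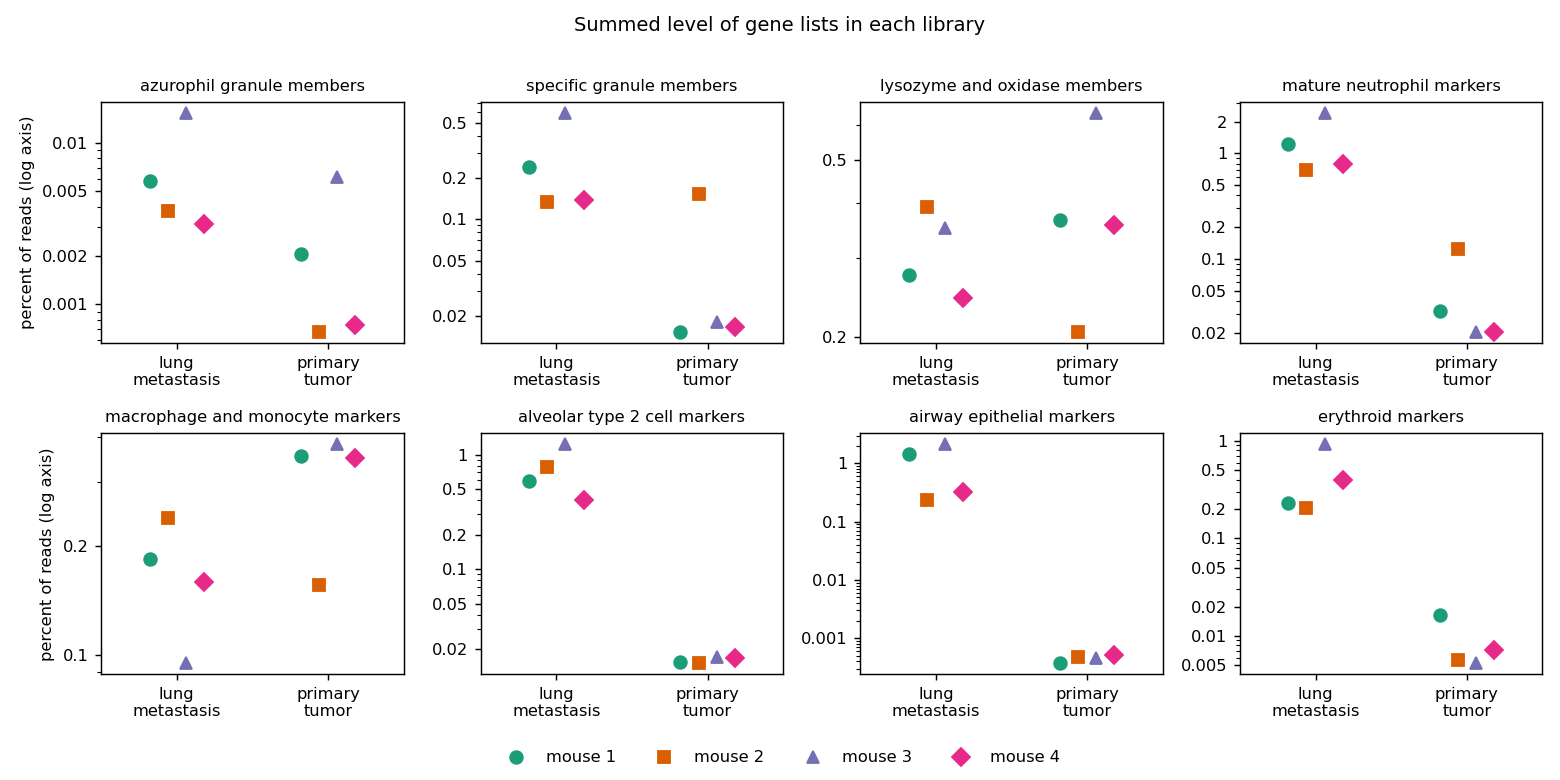
Summed level of 8 gene lists as percent of reads in each library, on log axes, with lung metastases left of primary tumors and 1 marker shape per mouse. Mature neutrophil, alveolar type 2, airway and erythroid markers are higher in all 4 lung metastases, whereas macrophage and monocyte markers are higher in 3 of the 4 primary tumors than in any lung metastasis.

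The genes whose pattern over the 8 libraries was most like each granule class were found by the root mean square difference of centred log2(value + 1) values over 13993 other genes. Nearest to the mean azurophil profile was Ppp1r3d, a glycogen-targeting subunit of protein phosphatase 1, at 0.225 log2 units. Dtna (0.235), Lilrb3 (0.284), Pag1 (0.309) and A430107O13Rik (0.31) came next. Elane lay at 0.297 from this profile, Ctsg at 0.62, Mpo at 0.642 and Prtn3 at 0.822. Nearest to the mean specific profile was Thbd, thrombomodulin, at 0.285, followed by Fmo1 (0.287), Pglyrp1 (0.308), BC100530 (0.336) and Nckap5 (0.359). Ngp lay at 0.575 from it, Ltf at 0.594, Camp at 0.78 and Lcn2 at 1.87. The named neighbours are the closest of all genes compared, and the specific profile includes the high Lcn2 value of primary tumor 2. With a pseudocount of 0.1 or 5, 2 and 1 of the 5 azurophil neighbours were named again, and 3 and 3 of the specific ones.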

How the data were processed

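RNA of bulk tumor tissue was extracted with an RNeasy kit and sequenced from TruSeq RNA libraries, per the labels' protocols, which do not describe strand marking. The genome build was mm9, per the submitters' processing notes. An aligner or counting tool is not given in the sources used here. The authors deposited 1 table of signal values, read counts scaled by library to about 1000000. Dividing by what 1 read was worth in a column gave whole numbers for 100% of values (tolerance 0.05), and these were taken as the reads. The table's identifiers belong to the BC block: 12 PDAC columns did not follow the symbols beside them (Spearman's rho 0.1 across rows with the BC means, rows not being replicates) and were not used.

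Genes reaching 1 in 4 or more of the 8 BC libraries were tested with limma 3.58.1 (trend) on log2(value + 1), which understates changes of low genes. Benjamini-Hochberg adjustment ran over all 14003 genes. Alternatives were edgeR 4.0.16 and DESeq2 1.42.0 on the recovered reads, other pseudocounts (0.1 and 5), no filter or a minimum of 5, median-ratio scaling, array weights, a mouse block and leaving out libraries. The test was tested on simulated data. Titles number the mice and the series text calls the tumors matched, so equal numbers are 1 animal. Deviations from group means correlated within mice 1 to 4 at 0.1, -0.15, 0.03 and 0.01.

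The members and the gene lists were chosen with earlier results of these data known. Named genes were the members, up to 4 tested genes with the smallest p in each list and the 5 nearest genes to each profile; Lyz1, Slpi, Cyba, Ctsc and the other genes whose change crossed 0 in an alternative were chosen after their values were seen. Bpi, Bpifa1, Epx, Prg3 and Klf1 were not analysed here, nor were protein sequences, and 2 list genes are not reported here.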

Additional observations from a re-analysis of the deposited data

Results flagged for a closer look

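Of 58 groups of 4 libraries, 12 had 1 library far from the rest by Dixon's 95% limit for 4 samples. Chance gives about 1 in 20 only for independent groups of normally distributed values. The values here were not log transformed, and some flagged sums hold genes that were also flagged alone. The count of 12 is therefore not read as an excess.

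Mouse 3 stood out for Prtn3 in both tissues, with 67.4 normalised read counts in lung metastasis 3 (14.8 to 23.3 in the others) and 55.8 in primary tumor 3 (3.51 to 12.1 in the others). Lung metastasis 3 also stood out for Ngp, with 2306 against 448 to 762, and for the sum of other specific and gelatinase granule genes, with 5412 against 1579 to 2063. The sum of all 10 members was 6471 in primary tumor 3, against 3549 to 3906 in the other primary tumors, and most of it was Lyz2.

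Primary tumor 1 stood out for Camp (10.8, against 2.76 to 3.59), for Ngp (31.7, against 11.5 to 14.6) and for the sum of erythroid markers (166.9, against 51.2 to 70.7).

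Primary tumor 2 stood out for Lcn2, with 1482 against 89.0 to 145, and so for the sum of the 4 specific granule members, with 1510 against 155 to 176. Its mature neutrophil markers summed to 1228, against 200.4 to 329, and its macrophage and monocyte markers to 1548, against 3456 to 3739.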

How the results depend on the processing

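No member and no called gene of the lists changed direction under the alternatives run. The log2 changes of 8 list genes that were called in 0 settings crossed 0: Ccr2 (-0.34 with edgeR, -0.32 with DESeq2, -0.03 with array weights), Ctsc (0.09 with array weights), Slpi (0.14 with array weights) and Slc22a17 (-0.37 with array weights, -0.31 without mouse 3), and, over the sets without 1 library, Ccr2 (-0.73 to 0.50), Slc22a17 (-0.26 to 0.43), Ctsc (-0.37 to 0.02), Slpi (-0.29 to 0.25), Cyba (-0.12 to 0.03), Esrp1 (-0.69 to 0.21), Krt14 (-0.04 to 0.97) and Cldn7 (-0.01 to 0.62). Genes called higher numbered 1005 and genes called lower 274. Higher calls moved to 644 with a minimum value of 5, to 1536 with array weights and to 632 without both libraries of mouse 3, an exclusion chosen after seeing the data. Lower calls moved to 747 with array weights and 517 with DESeq2. On the recovered reads edgeR called 843 genes higher and 207 lower, and DESeq2 called 1468 higher. With the replicate block, the mouse, 936 genes were higher and 176 lower, and 6 members were called in place of 5. Among the genes named above Elane, Ncf1 and Ncf4 passed with this block, and the Runx1 and Trem2 calls were lost. Leaving out 1 library gave 453 to 877 higher genes, 77 to 370 lower genes, 4 to 6 called members, 39 to 59 called genes in the related lists (53 with all libraries) and a specific minus azurophil difference of 2.20 to 2.87. The member count was 4 to 7 and the difference 1.92 to 2.96 over all alternatives. Prtn3 had no adjusted p in DESeq2, Ctsg and Elane were not tested at a minimum of 5, and the Ctsg adjusted p ran from 0.00237 to 0.104. The genes nearest to the profiles moved with the pseudocount, as 2 and 1 of 5 azurophil and 3 and 3 of 5 specific ones were named again. The cause of these shifts was not tested. Depth limits Mpo, Ctsg and Elane, whose values rest on 2 to 669, 0 to 411 and 13 to 285 reads, and 4 mice limit all members.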
